A study of Homo sapiens with 6 samples.

Results

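The genes described here are the histone genes of MDA-MB-231, a line established from a triple-negative breast cancer, measured in polyadenylated RNA after knockdown of NRDE2. Their rows were taken from the deposited expression table by gene symbol, as every symbol that starts with HIST1, HIST2, HIST3, HIST4, H2AF, H3F3, H1F0 or H1FX, without names that mark a pseudogene by a closing P or PS and a digit. This gave 83 of the 25365 rows, of which 69 belong to the replication-dependent clusters (HIST1 to HIST4) and 14 carry replacement names. The tested cells received si-NRDE2-2, a single siRNA sequence against NRDE2, and the reference cells received si-Control, the Ambion negative control AM4611. Both were transfected at 20 nM and harvested at 48 h, with 3 libraries each. The libraries were made from total RNA by poly(A) selection with a stranded TruSeq kit. The NRDE2 protein is nuclear and a partner of the helicase MTREX.

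Histones package DNA into nucleosomes, each built from the core histones H2A, H2B, H3 and H4 and closed off by a linker histone H1. The replication-dependent genes are expressed mainly in S phase, and their mRNAs classically end in a conserved stem-loop instead of a poly(A) tail, so that poly(A) selection captures only the part of them that carries a tail. The replacement genes lie outside the clusters, make ordinary polyadenylated mRNAs throughout the cell cycle, and supply variants such as H2A.Z, macroH2A and H3.3 to chromatin that is not being replicated.

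The stem-loop was looked for in the GENCODE 29 transcripts of GRCh38, as a stem of 6 bases opening with GG, a loop of 4 bases that opens with T and holds no G, and the exact reverse complement of the stem, on the transcript strand. It was found in 28 of the 69 replication-dependent rows, although only 33 of these have an annotated 3′ UTR. In 18 of the 28 an annotated transcript runs on for more than 300 bases past the loop. The same pattern was present in 0.534% of the 3′ UTRs of 10675 tested genes, against 39.1% of those of 23 tested histone rows, where UTR lengths differ. The following 26-base windows are shown because they belong to tested rows of different histone types, with the stem in capitals.
HIST2H2AA3: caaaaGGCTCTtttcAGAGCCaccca
HIST1H2AC: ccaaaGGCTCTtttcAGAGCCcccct
HIST1H2BD: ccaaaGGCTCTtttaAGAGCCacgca
HIST1H3H: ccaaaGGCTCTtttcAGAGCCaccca
HIST1H4H: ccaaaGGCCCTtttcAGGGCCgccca
H2AFX: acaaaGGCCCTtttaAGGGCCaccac
Where a gene has several transcripts, the one with the most bases after a loop was taken. It ends 35 bases after the loop in HIST2H2AA3 and 39 bases after it in HIST1H2BD, whereas 1128 bases follow in HIST1H2AC and 1655 in HIST1H4H. HIST1H2BD also has a longer transcript, of 789 bases with a 3′ UTR of 384 bases. H2AFX was the only one of the 14 replacement rows with a match, and 1044 bases follow its loop. H2AFX encodes H2A.X, the histone whose phosphorylation marks DNA breaks, and is known to give both a stem-loop and a polyadenylated mRNA.

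Expression values are FPKM as deposited, that is fragment counts divided by transcript length and by sequencing depth, and they sum to between 448986 and 486271 per library. Of the 83 histone rows, 20 were at 0 in every library (all replication-dependent), 28 had some signal but did not reach 1 FPKM in at least 3 libraries, and 35 were tested. In a table without counts an exact 0 can be a failed estimate, and DAXX and NELFE, genes that cells use generally, were also listed at 0 in all 6 libraries. The 35 were 25 of the 69 replication-dependent and 10 of the 14 replacement rows. From the size of a single fragment in HIST2H2AB, a row of that length has only 11.1 to 15.2 fragments at 1 FPKM, and the shallowest library, si-NRDE2-2 replicate 3, had 0.761 of the depth of si-Control replicate 1. VIM (vimentin), known to be high in this mesenchymal-like line, averaged 1131 FPKM in si-NRDE2-2 cells and 1200 FPKM in si-Control cells, and the estrogen receptor gene ESR1 averaged 0.00307 FPKM in si-NRDE2-2 cells and 0.000983 FPKM in si-Control cells. NRDE2 itself had 0.230, 0.234 and 0.229 FPKM in si-NRDE2-2 replicates 1, 2 and 3, against 4.39, 4.45 and 3.80 FPKM in si-Control replicates 1, 2 and 3.

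Knockdown of NRDE2 left most tested histone rows uncalled. Called rows were all 5 tested at linker histone loci. H1FX and the antisense RNA H1FX-AS1 were higher and H1F0, HIST1H1C and HIST1H1E lower in si-NRDE2-2 cells. The macroH2A1 gene H2AFY and 4 low rows of core histones were also called. Among these 4 rows, HIST2H2BA and HIST2H2BC are annotated as transcribed pseudogenes. In a limma fit of log2(FPKM + 0.1) across all 11792 genes tested, with Benjamini-Hochberg adjustment and an adjusted p under 0.05 taken as a call, 10 of 35 histone rows (28.6%) were called, against 44.0% of all genes. Of these, 4 were higher and 6 lower in si-NRDE2-2 cells, whereas 20.9% of all genes were called higher and 23.0% lower. In the same 10 rows the 3 values of each group did not overlap, which held for 53.5% of all genes. The replication-dependent rows gave 6 calls of 25 (2 higher, 4 lower) and the replacement rows 4 of 10 (2 higher, 2 lower). The 2 higher replacement rows were H1FX and H1FX-AS1, and the latter is not a histone gene. The median log2 fold change was -0.05 over the replication-dependent rows, 0.03 over the replacement rows and -0.02 over all genes. The median SE was 0.13 in replication-dependent rows, 0.05 in replacement rows and 0.06 in all genes. Nothing in the labels says that the replicates were separate cultures, so these p-values measure the spread between libraries, which may be technical. In bulk RNA, fewer cells of a kind (cells in S phase, for example) and less RNA per cell cannot be told apart.

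**Figure D1:**
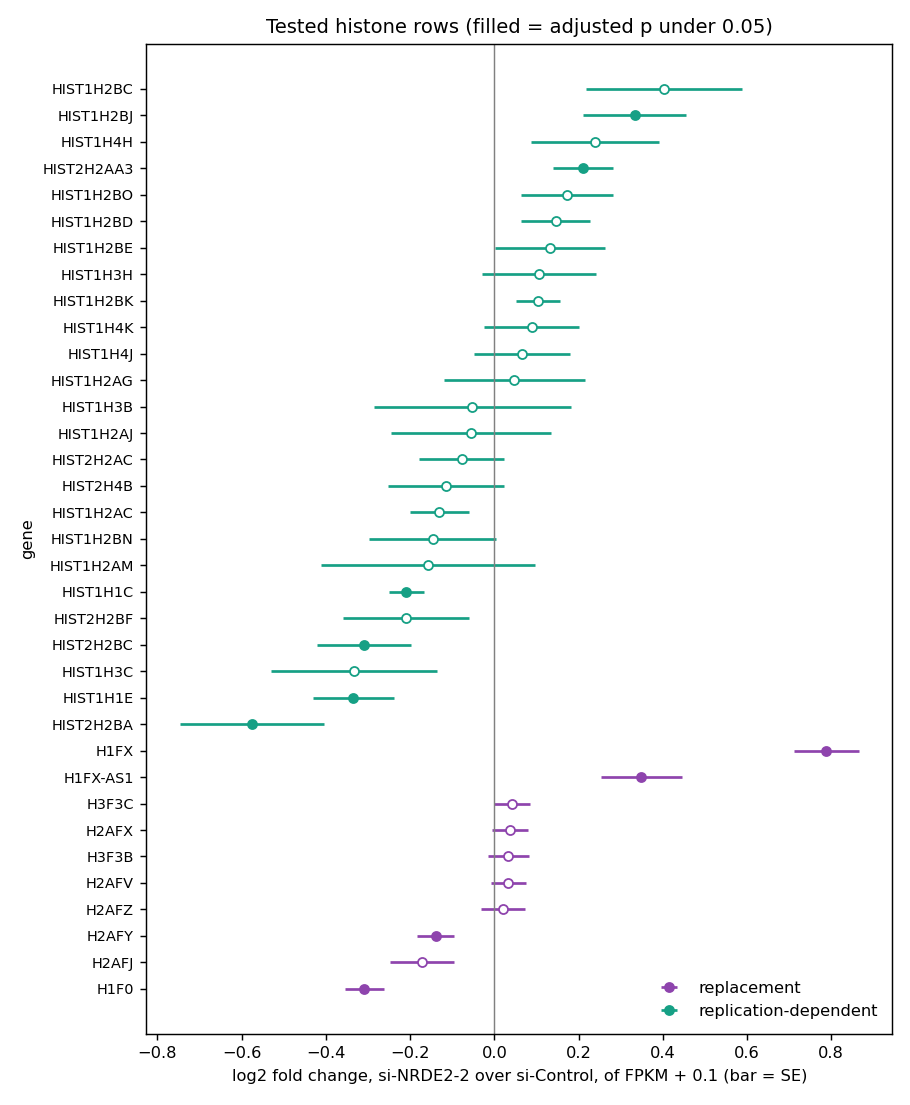
Log2 fold change of si-NRDE2-2 over si-Control (x axis, on log2(FPKM + 0.1), bar = SE) for each of the 35 tested histone rows (y axis), in purple for replacement and green for replication-dependent genes, with filled points for the 10 rows called. H1FX lies farthest to the right at 0.79, and HIST2H2BA farthest to the left at -0.58 with a wide bar.

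The polyadenylated RNA of the linker histone genes differed in composition between the groups. H1FX, the gene of the replication-independent linker histone H1.X, had 83.5, 72.6 and 73.5 FPKM in si-NRDE2-2 libraries, against 41.5, 41.5 and 50.002 FPKM in si-Control libraries. Every si-NRDE2-2 library was above every si-Control library, and the mean was 1.73-fold higher, at 76.5 ± 6.06 FPKM in si-NRDE2-2 cells and 44.3 ± 4.90 FPKM in si-Control cells (SD, n = 3 each). The log2 fold change was 0.79 ± 0.08 (SE, adjusted p = 1.55e-05 in limma), the largest among the tested histone rows.

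H1F0, the linker histone gene linked to differentiated and non-dividing cells, was lower in si-NRDE2-2 cells, with 118.8, 114.3 and 115.0 FPKM in si-NRDE2-2 libraries and 140.8, 140.6 and 149.8 FPKM in si-Control libraries. Its groups did not overlap, and its log2 fold change was -0.31 ± 0.05 (SE, adjusted p = 2.90e-04 in limma). HIST1H1C, a replication-dependent linker gene and the second highest row of its class, had 33.2, 35.0 and 33.8 FPKM in si-NRDE2-2 libraries and 39.9, 38.2 and 39.9 FPKM in si-Control libraries. It fell by 0.21 ± 0.04 on the log2 scale (SE, adjusted p = 0.00229 in limma), with no overlap. HIST1H1E, another linker gene of the same cluster, was near the detection filter at 1.27, 1.48 and 1.43 FPKM in si-NRDE2-2 libraries and 1.80, 1.61 and 1.93 FPKM in si-Control libraries. Its log2 fold change was -0.34 ± 0.10 (SE, adjusted p = 0.0154 in limma), and the adjusted p was 0.0502 without si-NRDE2-2 replicate 1. The other 4 linker genes of the clusters were not tested, 3 of them being at 0 in all libraries.

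Since FPKM is scaled by length, the 8 linker genes can be added up. Poly(A) selection captures only the tailed part of the mRNAs of the 6 cluster genes, and 3 of these were listed at 0. The sum and shares therefore describe the captured RNA and not the amounts of linker histones. The sum of the 8 genes was 227.9 ± 7.62 FPKM in si-NRDE2-2 cells and 229.2 ± 10.8 FPKM in si-Control cells, a ratio of 0.994. Within that sum H1FX held 35.3, 32.5 and 32.8% in si-NRDE2-2 libraries and 18.5, 18.7 and 20.7% in si-Control libraries. H1F0 held 50.9 ± 0.655% in si-NRDE2-2 cells and 62.7 ± 0.682% in si-Control cells (SD, n = 3 each). The summed level therefore differed by less than the spread between libraries, while the shares of H1FX, H1F0, HIST1H1C and HIST1H1E did not overlap between the groups. Of the other 4 members, HIST1H1T overlapped near 0 and 3 were listed at 0 throughout. Shares of the same sum are bound together, so a larger share of H1FX leaves less for the rest. The separated shares are therefore not independent results. Among all tested genes, 53.5% had FPKM that separated the groups.

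**Figure D2:**
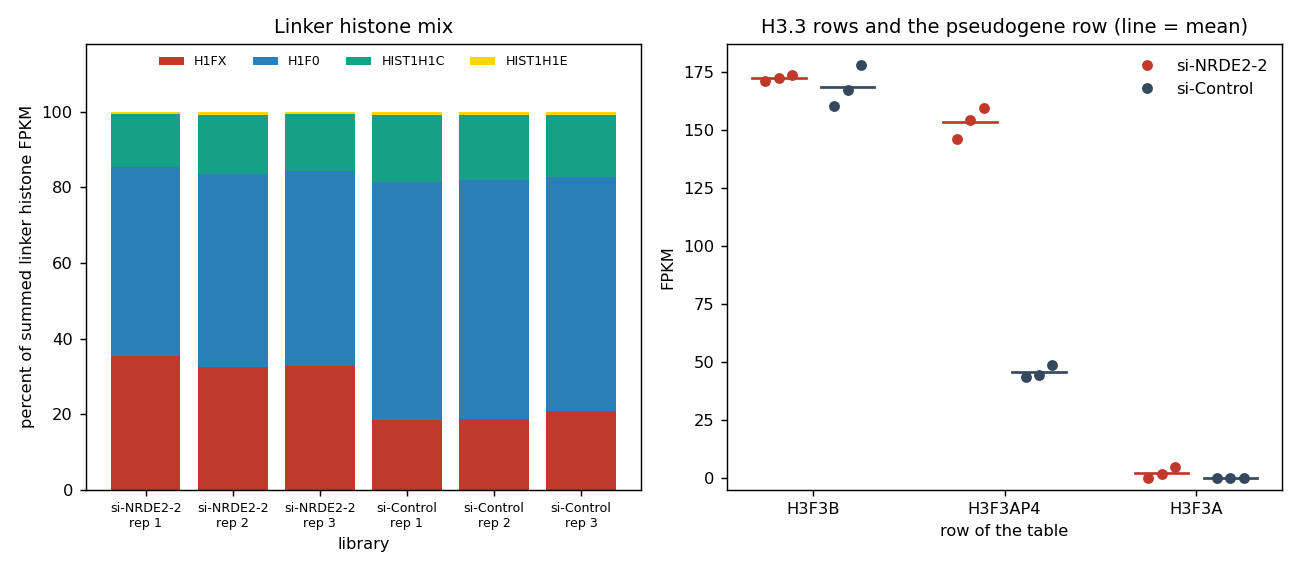
Left, the share of H1FX, H1F0, HIST1H1C and HIST1H1E in the summed FPKM of 8 linker histone genes (percent, y axis) in each of the 6 libraries (x axis), with H1FX at the base of each bar at 32.5 to 35.3% in si-NRDE2-2 and 18.5 to 20.7% in si-Control libraries. Right, FPKM (y axis) of 3 rows of the table (x axis), with a point per library and a line at the mean, where H3F3B overlaps between the groups and the pseudogene row H3F3AP4 does not.

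H1FX-AS1, which the symbol rule brings in although GENCODE annotates it as an antisense RNA of the H1FX locus, was low, with 1.20, 1.13 and 1.03 FPKM in si-NRDE2-2 libraries and 0.881, 0.860 and 0.826 FPKM in si-Control libraries. It was called higher, with a log2 fold change of 0.35 ± 0.10 (SE, adjusted p = 0.0130 in limma). The exons of H1FX and H1FX-AS1 share 345 bases on opposite strands. The libraries are stranded, but how strand was treated when the FPKM were computed is not stated in the labels, so reads of H1FX counted in H1FX-AS1, or the reverse, cannot be told apart from a change of each.

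The promoters of 3 linker genes are shown because H1FX and the 2 tested replication-dependent H1 genes moved in opposite directions. RefSeq (GRCh38.p14) gave a promoter window of 250 bases before to 50 bases after the start for 68 of the 83 rows, with none for H1F0. AAACACA (the H1 box), CCAAT and TATAAA were searched on both strands, and matches are in capitals. The ends of TATAAA and AAACACA can overlap, which they do not in the windows shown.
H1FX, chr3:129316237-129316536 (- strand): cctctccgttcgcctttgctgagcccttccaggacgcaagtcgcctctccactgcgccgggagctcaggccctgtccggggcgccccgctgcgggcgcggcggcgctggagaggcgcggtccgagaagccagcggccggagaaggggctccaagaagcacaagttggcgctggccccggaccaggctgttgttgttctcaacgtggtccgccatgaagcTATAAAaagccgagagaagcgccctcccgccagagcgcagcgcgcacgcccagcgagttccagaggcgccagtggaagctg
HIST1H1C, chr6:26056421-26056720 (- strand): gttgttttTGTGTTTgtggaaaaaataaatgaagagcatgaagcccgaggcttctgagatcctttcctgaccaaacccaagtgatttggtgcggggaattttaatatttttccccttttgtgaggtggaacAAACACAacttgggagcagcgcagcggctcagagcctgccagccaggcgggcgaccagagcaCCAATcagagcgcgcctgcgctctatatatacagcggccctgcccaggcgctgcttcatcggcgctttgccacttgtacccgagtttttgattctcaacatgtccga
HIST1H1E, chr6:26156079-26156378 (+ strand): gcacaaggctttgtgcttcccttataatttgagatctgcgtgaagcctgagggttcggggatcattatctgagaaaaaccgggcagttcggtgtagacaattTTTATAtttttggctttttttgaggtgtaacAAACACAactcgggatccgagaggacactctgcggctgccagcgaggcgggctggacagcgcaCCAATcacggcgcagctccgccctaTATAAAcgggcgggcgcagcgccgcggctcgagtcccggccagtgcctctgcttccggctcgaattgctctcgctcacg
HIST1H1C holds AAACACA 119 bases and CCAAT 57 bases before its start, and HIST1H1E holds them at 117 and 54 bases. All 6 promoters of the HIST1H1 genes hold both motifs, with AAACACA in HIST1H1A only on the reverse strand. The H1FX window holds neither. The window of H2AFY, a gene called lower, holds neither as well. AAACACA was found in 8 of 57 replication-dependent and 0 of 11 replacement promoters, and CCAAT in 48 of 57 and 8 of 11. In HIST2H2AC and HIST2H3C the AAACACA match lies after the start, on the reverse strand. A link between these motifs and the direction of change was not tested. TATAAA lies 31 bases before the start of H1FX and 29 bases before that of HIST1H1E, and 3 of the 6 HIST1H1 promoters hold it. Among 35116 promoter windows, 5.64% hold AAACACA, 34.6% CCAAT and 11.5% TATAAA. A match describes the letters and not a bound factor.

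Among the H2A variants, only macroH2A1 was called. H2AFY, which encodes this large variant with a non-histone macro domain, had 102.4, 103.7 and 101.5 FPKM in si-NRDE2-2 libraries and 109.1, 113.9 and 116.0 FPKM in si-Control libraries. Its log2 fold change was -0.14 ± 0.04 (SE, adjusted p = 0.0217 in limma), and the groups did not overlap. The adjusted p was 0.0686, 0.0859 and 0.0866 without si-NRDE2-2 replicate 2, si-NRDE2-2 replicate 3 and si-Control replicate 2. The paralog H2AFY2 (macroH2A2) was listed at 0 in 5 libraries and at 0.00867 FPKM in si-NRDE2-2 replicate 2.

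H2AFZ, the gene of H2A.Z and the highest histone row of the table, had 374.4, 395.7 and 396.7 FPKM in si-NRDE2-2 libraries and 383.6, 367.7 and 399.6 FPKM in si-Control libraries. The groups overlapped, and the 95% interval of its log2 fold change ran from -0.10 to 0.14. H2AFV, which encodes the second form of H2A.Z, had 100.3, 105.4 and 101.8 FPKM in si-NRDE2-2 libraries and 99.5, 100.7 and 100.2 FPKM in si-Control libraries, with an interval from -0.06 to 0.12. H2AFX had 62.3, 61.9 and 59.7 FPKM in si-NRDE2-2 libraries and 58.0, 61.7 and 59.5 FPKM in si-Control libraries, with an interval from -0.06 to 0.13. For these 3 variants a rise of more than 1.1-fold lies outside the interval. H2AFJ, a variant close to canonical H2A, had 9.04, 7.94 and 7.58 FPKM in si-NRDE2-2 libraries and 8.65, 8.99 and 10.0 FPKM in si-Control libraries, which overlapped, and it was not called (log2 fold change -0.17 ± 0.08, SE, adjusted p = 0.0887 in limma). H2AFB1 and H2AFB2, testis variants, stayed under 0.06 FPKM in every library.

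**Figure D3:**
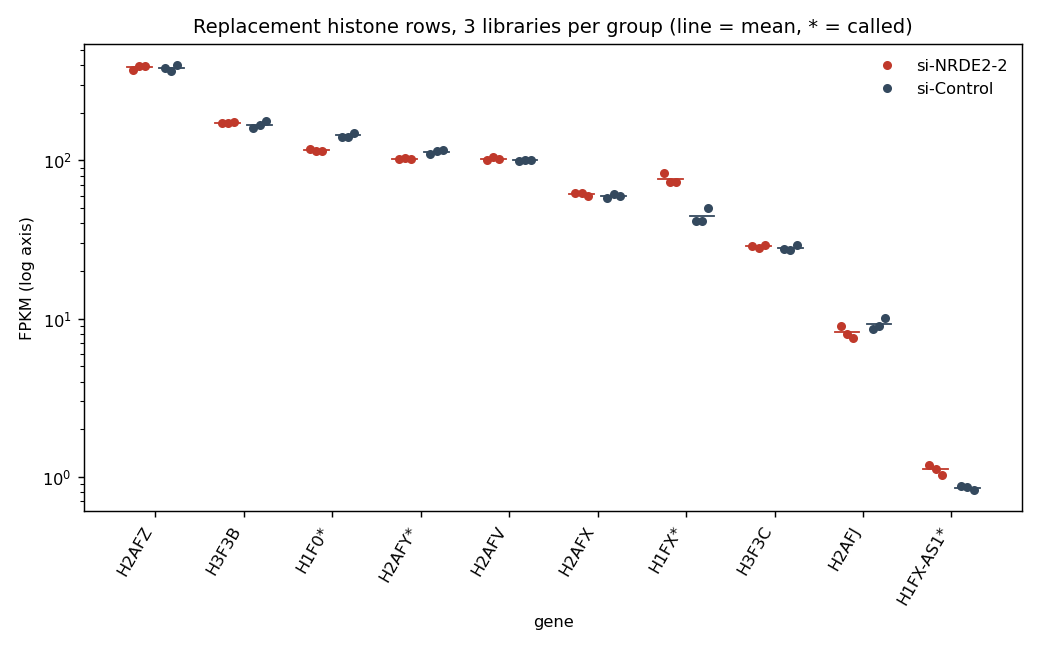
FPKM on a log axis (y) of the 10 tested replacement rows (x axis, ordered by mean), with a point per library, a line at each group's mean and si-NRDE2-2 to the left of si-Control. The groups separate for the 4 rows marked with an asterisk, with H1FX the widest apart, while H2AFZ, H3F3B, H2AFV, H2AFX, H3F3C and H2AFJ overlap.

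H3.3 is the H3 variant placed outside replication by the HIRA and DAXX chaperones. Its rows and the related row H3F3C share sequence and are given together. H3F3B had 171.1, 172.2 and 173.7 FPKM in si-NRDE2-2 libraries and 160.3, 167.2 and 178.1 FPKM in si-Control libraries. These overlapped, with an interval of the log2 fold change from -0.08 to 0.14. H3F3A, which encodes the same protein, was not tested, since it had 0.00177, 1.91 and 4.595 FPKM in si-NRDE2-2 libraries and 0.00283, 0.00123 and 0.00280 FPKM in si-Control libraries. A value this close to 0 can be a failed estimate. H3F3AP4, a processed pseudogene of H3F3A that the symbol rule leaves out and that was added here after its values were seen, had 146.2, 154.2 and 159.3 FPKM in si-NRDE2-2 libraries and 43.4, 44.5 and 48.6 FPKM in si-Control libraries.

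In GENCODE 29, 362 of the 362 stretches of 50 bases in the H3F3AP4 transcript also occur in H3F3A transcripts, where they make up 11.7% of such stretches. Fragments of the parent gene and of the pseudogene therefore cannot be told apart in that sequence, and the H3F3AP4 value may hold either. The H3F3AP4 row was 3.37-fold higher in si-NRDE2-2 cells (log2 fold change 1.75 ± 0.05, SE, adjusted p = 6.93e-09 in limma). With both rows summed, an alternative chosen after seeing the data, the level was 146.2, 156.1 and 163.9 FPKM in si-NRDE2-2 libraries and 43.4, 44.5 and 48.6 FPKM in si-Control libraries, 3.42-fold higher. Parent gene and pseudogene may be scaled by different transcript lengths, so the summed value is not a per-length level of H3F3A. H3F3C, a primate gene derived from H3F3B, had 28.9, 28.1 and 29.2 FPKM in si-NRDE2-2 libraries and 27.5, 27.2 and 29.1 FPKM in si-Control libraries. It shared 21.8% of its 50-base stretches, mostly with H3F3B, so part of its value may be that gene's.

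An earlier pass over these libraries had picked 3 short motifs from the 3′ UTRs of genes by their fold changes, so their presence here is no independent evidence. The first was GACGTA, the second was GACAGTA, and the other was GACTGTA, and they cannot overlap each other. On the transcript strand they were found in 5 histone rows, of which the 3 replacement genes are shown, with the motif in capitals.
H1FX: ctaccccaagtGACGTAgattttgtacg
H3F3A: ttatgcattaaGACGTAaaaggagcagt
H2AFZ: tgattccagtgGACTGTAtctctgtgaaa
H1FX and H3F3A hold GACGTA, at bases 65 and 389 of their 3′ UTRs, and H2AFZ holds GACTGTA at base 74. H1FX was higher in si-NRDE2-2 cells, and H2AFZ was not called. H3F3A was not tested, and the H3F3AP4 row may hold either parent gene or pseudogene, so the direction of H3F3A is not known. HIST1H2BN and HIST2H3C hold GACAGTA. HIST1H2BN was not called (log2 fold change -0.15 ± 0.15, SE) and HIST2H3C was too low to test. Among 10675 tested genes with an annotated 3′ UTR, 4.43% hold GACGTA and 20.2% hold any of the 3 motifs, against 13% (3 of 23) of the tested histone rows.

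The core histone genes of the replication-dependent clusters showed few differences. Their listed values were low, and only 5 of the 69 cluster rows, linker genes included, averaged at least 5 FPKM. HIST1H2BK, HIST1H1C and HIST1H2BD together held 64.8% of the summed FPKM of the 69. HIST1H2BK, an H2B gene and the highest of them, had 69.4, 70.9 and 70.3 FPKM in si-NRDE2-2 libraries and 62.0, 63.8 and 70.5 FPKM in si-Control libraries, where si-Control replicate 3 lay among the si-NRDE2-2 values. It was not called (log2 fold change 0.10 ± 0.05, SE, adjusted p = 0.126 in limma), and 74.1% of its 50-base stretches also occur in other transcripts, mostly H2BFS. HIST1H2BD, also an H2B gene, averaged 14.8 ± 1.55 FPKM in si-NRDE2-2 cells and 13.4 ± 1.24 FPKM in si-Control cells and was not called (adjusted p = 0.175 in limma).

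HIST2H2AA3, an H2A gene with the stem-loop shown above, had 8.55, 7.41 and 7.07 FPKM in si-NRDE2-2 libraries and 6.43, 6.55 and 6.83 FPKM in si-Control libraries. It was called higher (log2 fold change 0.21 ± 0.07, SE, adjusted p = 0.0326 in limma). All of its 50-base stretches also occur in HIST2H2AA4, so the value belongs to the pair. It was the only row called among 11 tested replication-dependent rows with a stem-loop, where 44.0% of all genes were called. Only 14 of the 25 tested replication-dependent rows have an annotated 3′ UTR, so a row without a match may lack only the annotation. HIST1H2BJ, an H2B gene, had 2.14, 2.10 and 2.96 FPKM in si-NRDE2-2 libraries and 1.76, 2.02 and 1.81 FPKM in si-Control libraries, with a log2 fold change of 0.33 ± 0.12 (SE, adjusted p = 0.0452 in limma).

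HIST2H2BA and HIST2H2BC, which GENCODE annotates as transcribed pseudogenes of H2B, were called lower. HIST2H2BA had 1.23, 1.98 and 1.08 FPKM in si-NRDE2-2 libraries and 2.25, 2.02 and 2.06 FPKM in si-Control libraries (log2 fold change -0.58 ± 0.17, SE, adjusted p = 0.0180 in limma). It shares 73.6% of its 50-base stretches, mostly with HIST2H2BF, which was not called. HIST2H2BC had 1.70, 2.21 and 2.19 FPKM in si-NRDE2-2 libraries and 2.82, 2.29 and 2.501 FPKM in si-Control libraries (log2 fold change -0.31 ± 0.11, SE, adjusted p = 0.0424 in limma). In each of these 4 rows the groups did not overlap, but each call was lost without 1 or more of the libraries. Without si-NRDE2-2 replicate 1 the adjusted p was 0.0818 for HIST2H2AA3, 0.138 for HIST2H2BC and 0.0738 for HIST2H2BA, and without si-NRDE2-2 replicate 3 it was 0.172 for HIST1H2BJ. Without si-Control replicate 1 it was 0.0898 for HIST2H2AA3, 0.147 for HIST2H2BC, 0.114 for HIST1H2BJ and 0.0656 for HIST2H2BA. Without si-NRDE2-2 replicate 1, and likewise without si-Control replicate 1, only 3 of the 25 tested replication-dependent rows were called. Of all 11792 genes, 5147 were called without si-NRDE2-2 replicate 1 and 4513 without si-Control replicate 1.

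The remaining 19 tested replication-dependent rows were not called. Their log2 fold changes ran from -0.33 (HIST1H3C) to 0.40 (HIST1H2BC), with SEs from 0.05 to 0.25 and adjusted p-values from 0.109 to 0.875 in limma, and the groups overlapped in all 19. None of the 3 tested H3 rows and none of the 4 tested H4 rows was called. HIST1H4J averaged 3.96 ± 0.549 FPKM in si-NRDE2-2 cells and 3.78 ± 0.540 FPKM in si-Control cells. HIST1H4K averaged 3.84 ± 0.576 FPKM in si-NRDE2-2 cells and 3.60 ± 0.477 FPKM in si-Control cells. The near-equal values belong to a pair in which every 50-base stretch of HIST1H4K is also found in another transcript, mostly HIST1H4J. Across the 35 tested rows, 25 shared at least 1 such stretch with another gene and 8 shared more than 50% of theirs.

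The 24 replication-dependent rows with signal that did not reach the filter were at most 1.69 FPKM in any library. That highest value was in HIST1H2AI, an H2A gene with 0.99999, 0.946 and 0.871 FPKM in si-NRDE2-2 libraries and 0.663, 0.684 and 1.69 FPKM in si-Control libraries. HIST1H4C, an H4 gene, had 0.858, 1.03 and 0.593 FPKM in si-NRDE2-2 libraries and 1.54, 0.863 and 0.788 FPKM in si-Control libraries. HIST2H2BE, an H2B gene whose transcript runs on for 1729 bases past its stem-loop, had 0.976, 0.989 and 0.738 FPKM in si-NRDE2-2 libraries and 0.959, 0.901 and 0.963 FPKM in si-Control libraries. In all 3 the groups overlapped. HIST1H2AH, another H2A gene, had 0.829, 0.686 and 0.635 FPKM in si-NRDE2-2 libraries and 0.483, 0.462 and 0.329 FPKM in si-Control libraries, without overlap. HIST1H2BL, an H2B gene, had 0.213, 0.278 and 0.353 FPKM in si-NRDE2-2 libraries and 0.471, 0.418 and 0.721 FPKM in si-Control libraries, and HIST1H4I, an H4 gene, had 0.0356, 0 and 0 FPKM in si-NRDE2-2 libraries and 0.203, 0.0968 and 0.110 FPKM in si-Control libraries. These 3 were the only rows of the 24 whose groups did not overlap, 1 higher and 2 lower, and all stood below the filter and were not tested. Groups did not overlap for 53.5% of all tested genes, and no such share was computed for rows below the filter. The 6 rows were chosen after their values were seen, the first 3 as those with the highest means among the 24.

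**Figure D4:**
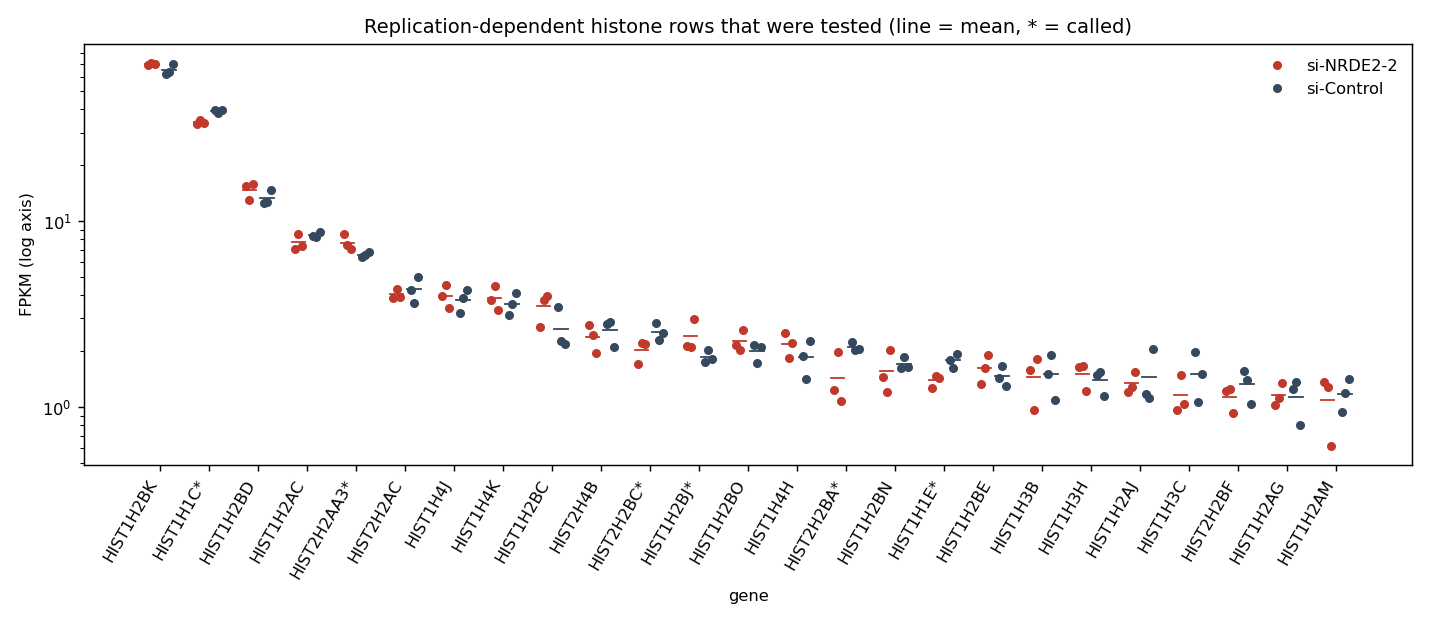
FPKM on a log axis (y) of the 25 tested replication-dependent rows (x axis, ordered by mean), with a point per library, a line at each group's mean and si-NRDE2-2 to the left of si-Control. Most rows lie between 1 and 5 FPKM with overlapping groups, and asterisks mark the 6 rows called.

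Added up, the replication-dependent rows had 180.9, 185.4 and 182.7 FPKM in si-NRDE2-2 libraries and 179.7, 177.4 and 192.2 FPKM in si-Control libraries, a ratio of 0.999. The replacement rows summed to 1060 ± 7.26 FPKM in si-NRDE2-2 cells and 1051 ± 36.4 FPKM in si-Control cells, without the H3F3AP4 row. By type, the replication-dependent H1 rows summed to 35.4 ± 1.03 FPKM in si-NRDE2-2 cells and 41.1 ± 1.14 FPKM in si-Control cells. The H2B rows summed to 102.5 ± 2.501 FPKM in si-NRDE2-2 cells and 96.4 ± 4.97 FPKM in si-Control cells, and the H2A rows to 25.3 ± 1.01 FPKM in si-NRDE2-2 cells and 25.2 ± 2.02 FPKM in si-Control cells. The H3 rows summed to 5.49 ± 0.249 FPKM in si-NRDE2-2 cells and 6.25 ± 0.401 FPKM in si-Control cells, and the H4 rows to 14.3 ± 1.28 FPKM in si-NRDE2-2 cells and 14.1 ± 0.686 FPKM in si-Control cells. The H1 sums did not overlap between the groups, nor did the small H3 sums, which lay between 5.23 and 5.72 FPKM in si-NRDE2-2 libraries and between 5.89 and 6.68 FPKM in si-Control libraries. Such a separation was seen in 53.5% of all tested genes. HIST1H1C alone averaged 34.0 FPKM in si-NRDE2-2 cells and 39.3 FPKM in si-Control cells, so the H1 sums mostly repeat that row.

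The genes that make, place and accompany histone mRNAs were followed as lists, each read against the 44.0% of all genes called. Of 25 tested factors for histone mRNA 3′ ends and decay, 10 (40.0%) were called, 2 higher and 8 lower, with a median log2 fold change of -0.01. CPSF1, a subunit of the cleavage complex, averaged 17.2 ± 1.55 FPKM in si-NRDE2-2 cells and 25.4 ± 1.09 FPKM in si-Control cells (log2 fold change -0.57, adjusted p = 4.13e-05 in limma). NCBP1, the large cap-binding subunit, had a log2 fold change of -0.50. ZNF473, a component of the U7 snRNP-dependent processing machinery, had -0.28, and UPF1, a helicase needed for histone mRNA decay, had -0.20, both called. SLBP, the stem-loop binding protein, had 38.2, 41.6 and 39.8 FPKM in si-NRDE2-2 libraries and 37.3, 40.4 and 42.8 FPKM in si-Control libraries, which overlapped. LSM11, a U7 snRNP protein, was higher at 3.46 ± 0.174 FPKM in si-NRDE2-2 cells and 2.38 ± 0.228 FPKM in si-Control cells (log2 fold change 0.53, adjusted p = 4.58e-04 in limma). SLBP and LSM11 were chosen after their values were seen.

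Of 33 tested genes in a list of histone chaperones and remodellers, which also holds the centromeric H3 variant CENPA, 10 (30.3%) were called, 3 higher and 7 lower, with a median of -0.02. The count was 5 without si-NRDE2-2 replicate 3, and 6 without si-NRDE2-2 replicate 2 and likewise without si-Control replicate 2. In these fits, in the same order, 4239, 3993 and 3927 of all 11792 genes were called, against 5185 with every library. EP400, a remodeller that exchanges H2A.Z, averaged 4.20 ± 0.193 FPKM in si-NRDE2-2 cells and 7.51 ± 0.692 FPKM in si-Control cells (log2 fold change -0.82, adjusted p = 8.75e-06 in limma). IPO4, which imports H3 and H4, had a log2 fold change of -0.52, and SSRP1, a subunit of the FACT chaperone, of -0.26, both called. CENPA, whose symbol falls outside the histone rule and which is 1 of the 7 lower genes of this list, had 13.7, 15.1 and 15.6 FPKM in si-NRDE2-2 libraries and 18.7, 17.9 and 18.3 FPKM in si-Control libraries (log2 fold change -0.31, adjusted p = 0.00107 in limma). Its groups did not overlap.

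Histone genes are expressed with S phase, so genes of that phase were read beside them. Of 25 tested S phase genes, 13 (52.0%) were called, 4 higher and 9 lower, with a median of -0.05. CDC45, part of the replicative helicase, averaged 8.30 ± 0.325 FPKM in si-NRDE2-2 cells and 12.1 ± 0.415 FPKM in si-Control cells (log2 fold change -0.54, adjusted p = 1.57e-05 in limma). RRM2, the ribonucleotide reductase subunit, had a log2 fold change of -0.44, MCM7, another helicase subunit, of -0.30, and CDC6, a licensing factor, of -0.27, all called. The 4 genes called higher were GINS2, a helicase-associated factor (12.2 ± 0.403 FPKM in si-NRDE2-2 cells and 9.14 ± 0.521 FPKM in si-Control cells, log2 fold change 0.42, adjusted p = 1.49e-04 in limma), MCM6 (0.19), E2F1 (0.19) and MCM2 (0.17), named after their values were seen. The part that these genes have in the histone values was not tested.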

How the data were processed

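The authors deposited 1 table of FPKM values per gene for 6 libraries. The submitters' processing notes list DESeq2 1.10.1, STAR 2.5.1b and the build hg19, without their roles. The program behind the FPKM, its annotation, strand setting and read length are not given in the sources. The table has 4 columns of no sample, which were not used. Replicate numbers came from the sample titles. The FPKM were used as deposited. After 156 small RNA rows were left out, the 11792 genes that reached 1 FPKM in 3 libraries or more were fitted as log2(FPKM + 0.1) in limma 3.58.1 (R 4.3.3), with trended, robust variance and the group as the only term, and tested on simulated data. The scale understates changes of low genes. Sequences came from GENCODE 29 and RefSeq, with no hg19 coordinates. Every replacement variant tested and every replication-dependent row called was named, and from each other list up to 4 genes by smallest adjusted p, the direction of most calls first. The histone rows and lists were chosen with earlier results of these data known. Alternatives were 2 pseudocounts, 3 filters, 3 scalings, small RNA rows kept, a plain variance, rows summed, a replicate block and leaving out each library. Intervals are 95% and cover spread between libraries only.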

Additional observations from a re-analysis of the deposited data

How the results depend on the processing

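Over the 35 tested histone rows and 17 alternatives, 514 of 574 values kept direction and side of the threshold, 32 lost a call, 10 gained one and 18 changed sign. The 18 were in 13 rows not called, with adjusted p-values of at least 0.171 in limma where the sign had changed, and 0 of them were called. H2AFV changed to -0.011 under quantile normalization. The others changed when 1 library was left out, which gave log2 fold changes from -0.010 to 0.050 for H2AFZ, -0.0022 to 0.074 for H3F3B, -0.19 to 0.036 for HIST2H2AC, -0.21 to 0.21 for HIST1H2AJ, -0.16 to 0.18 for HIST1H2AG, -0.35 to 0.17 for HIST1H2AM, -0.34 to 0.013 for HIST1H2BN, -0.25 to 0.20 for HIST1H3B, -0.018 to 0.24 for HIST1H3H, -0.045 to 0.16 for HIST1H4J, -0.021 to 0.19 for HIST1H4K and -0.25 to 0.017 for HIST2H4B. The calls of H1FX, H1F0, H1FX-AS1 and HIST1H1C held under every alternative that tested them, H1FX with log2 fold changes from 0.72 to 0.88. H2AFY lost its call under 4 of 17, HIST2H2AA3 under 6 of 17, HIST1H1E under 1 of 16, HIST2H2BA under 4 of 16, HIST2H2BC under 8 of 16 and HIST1H2BJ under 9 of 16. With a mean of at least 5 FPKM required, 5 of 14 histone rows and 2 of 5 replication-dependent rows were called, against 3929 of 8473 genes in all. With all replication-dependent rows of each type summed, 2 of 5 sums were called, against 44.0% of all genes in the main fit. The sums called were H1 (log2 fold change -0.21) and H3 (-0.18), both lower in si-NRDE2-2 cells. The H1 sum is mostly HIST1H1C. Leaving out 1 library at a time gave 3 to 7 calls among 25 replication-dependent rows and 5 to 14 among 33 chaperones. Among all 11792 genes it gave 3927 to 5494. The median of the replication-dependent rows changed sign, to 0.10 for means of at least 5 FPKM, 0.07 when si-Control replicate 2 was left out, and 0.02 and 0.01 when si-NRDE2-2 replicate 1 or 3 was, so it sets no direction. The cause was not tested. Same-numbered libraries did not deviate together (correlations of -0.0817, 0.143 and -0.133), and not every library correlated best with its own number. With the replicate block, 3 of the 35 histone rows were called higher and 4 lower. In that fit 6 of 33 chaperones and 4679 of all 11792 genes were called. Rows under 5 FPKM rest on few fragments, so that a difference as small as that of HIST1H1C would mostly not pass there.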
